A study of Mus musculus with 6 samples.

Results

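The IGF ligands, receptors and binding proteins form a family of 10 genes here, taken by symbol from the 27179 genes counted in mouse embryonic fibroblasts (MEFs) with or without exogenous cryptochromes. They are the ligands Igf1 and Igf2, the receptors Igf1r and Igf2r, and the binding proteins Igfbp2, Igfbp3, Igfbp4, Igfbp5, Igfbp6 and Igfbp7. All of the lines were Cry1-/-, Cry2-/-, Per1-/-, Per2-/-, Nr1d1-/- and Nr1d2-/-, a background called CPN-/-. The CPN-/- line was the parent and carried nothing else. The CPN-/- CRY1 line carried exogenous mouse CRY1 and the CPN-/- CRY2 line exogenous mouse CRY2, each from a retroviral vector, and each was grown from single colonies chosen with blasticidin. Each line gave 2 libraries of polyA RNA from untreated, subconfluent cells. A change between lines therefore holds the effect of the CRY protein and any difference of the chosen colonies, and these cannot be told apart. The comparisons ask which IGF genes differ when CRY1 or CRY2 is the only one of the deleted proteins that a cell makes.

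IGF1 and IGF2 are secreted growth factors that bind the IGF1 receptor, a tyrosine kinase that signals through IRS adaptors to PI3K and AKT, and through SHC and GRB2 to the MAP kinases. IGF2R binds IGF2 without such signaling and carries it to lysosomes. Most IGF in tissue fluid is held by the IGFBPs, which bind it with high affinity, prolong its life and keep it from the receptor until proteases release it. IGFBP7 binds IGF weakly. Fibroblasts are a classical source of both IGFs and IGFBPs. CRY1 and CRY2 are repressors of CLOCK-BMAL1, the activator that binds E-boxes.

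Since E-boxes are where CLOCK-BMAL1 binds, the canonical letters CACGTG were looked for in the promoter window of each gene, from 250 bases before to 50 after an annotated start. Windows were found for all 10 genes, and 2 of them held the motif. Igfbp2, the gene with the widest range between lines, had 1 copy at -142, counted as the distance of its first base from the start. Igf2r, whose mRNA did not pass the test in any comparison, had copies at -48 and -7. Igfbp6, whose mRNA differed between the CRY lines, had none. The motif reads the same on both strands, and it was found in 8.09% of the 27025 genes with a window. The related letters CACGTT or AACGTG, the same E-box variant on either strand, were in no member window and in 5.44% of genes. A match is a run of letters and not a binding site. The 250 upstream bases of these 3 genes are shown from RefSeq, build GRCm38.p6, with CACGTG in capitals. They lie at chr1:72824230-72824479 on the plus strand for Igfbp2, at chr17:12769707-12769956 on the minus strand for Igf2r and at chr15:102143936-102144185 on the plus strand for Igfbp6.
Igfbp2: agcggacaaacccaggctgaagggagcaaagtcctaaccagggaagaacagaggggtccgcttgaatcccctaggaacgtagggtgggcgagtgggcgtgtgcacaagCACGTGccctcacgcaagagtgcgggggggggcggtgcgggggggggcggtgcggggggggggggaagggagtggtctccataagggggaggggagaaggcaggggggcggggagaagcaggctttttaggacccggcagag
Igf2r: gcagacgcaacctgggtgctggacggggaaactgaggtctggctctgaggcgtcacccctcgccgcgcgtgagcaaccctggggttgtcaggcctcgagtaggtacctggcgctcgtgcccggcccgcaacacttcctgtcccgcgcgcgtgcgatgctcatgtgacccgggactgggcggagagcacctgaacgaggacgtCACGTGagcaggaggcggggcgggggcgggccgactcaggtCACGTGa
Igfbp6: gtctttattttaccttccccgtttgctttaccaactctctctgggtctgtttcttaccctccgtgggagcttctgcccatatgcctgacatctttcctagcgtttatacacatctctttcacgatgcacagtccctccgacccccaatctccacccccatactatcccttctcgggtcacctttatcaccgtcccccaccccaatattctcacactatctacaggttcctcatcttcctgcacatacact

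The 6 libraries held 25957409 to 36106949 counts. Levels are given as CPM, the counts divided by the scaled library total, after TMM scaling, whose factors were 0.991 to 1.01, and as CPM per kb of the longest coding transcript where genes are compared with each other. Cry1 was highest in the CPN-/- CRY1 libraries (165 and 190 CPM against 48.3 to 125 elsewhere) and Cry2 in the CPN-/- CRY2 libraries (349 and 351 against 50.7 to 136). Transcripts of the 6 deleted genes were counted in every library, and gene counts do not check a small deletion. Of 12 fibroblast markers, 9 had over 10 counts in every library, whereas Thy1, Fap and Lum had 7 counts or fewer; the lists of epithelial, endothelial and haematopoietic markers each summed to 2.17 CPM or less. In the CPN-/- line, the difference between its libraries went with transcript length (Spearman 0.69, a description over 12478 genes that share both libraries); the value was -0.20 for CPN-/- CRY1 and 0.29 for CPN-/- CRY2. A lower level in a bulk sample can be fewer expressing cells or less RNA per cell, which cannot be told apart. The 2 libraries of a line were separate RNA preparations of 1 cell line, so p-values measure the spread between preparations.

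The most abundant member mRNA per length was Igfbp7, followed by Igfbp4, in every line. Igfbp7 had 151 CPM per kb in CPN-/-, 182 in CPN-/- CRY1 and 57.8 in CPN-/- CRY2, and Igfbp4 had 51.8, 28.1 and 41.1. The receptors came next in CPN-/- CRY1 and CPN-/- CRY2, between 11.2 and 15.7 CPM per kb. The ligands were low, with Igf1 at 0.282 CPM per kb and Igf2 at 0.559 in CPN-/-. Igfbp5, which binds matrix and IGF, had 0 counts in all 6 libraries, and Igfbp3, the main carrier of IGF in serum, had 0 or 1. A count of 0 allows up to 3 counts, which is 0.0830 to 0.115 CPM in these libraries and covers counting error only. Igfbp5 and Igfbp3 did not pass the filter on low counts, so 8 of the 10 members were tested among 14069 genes.

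**Figure D1:**
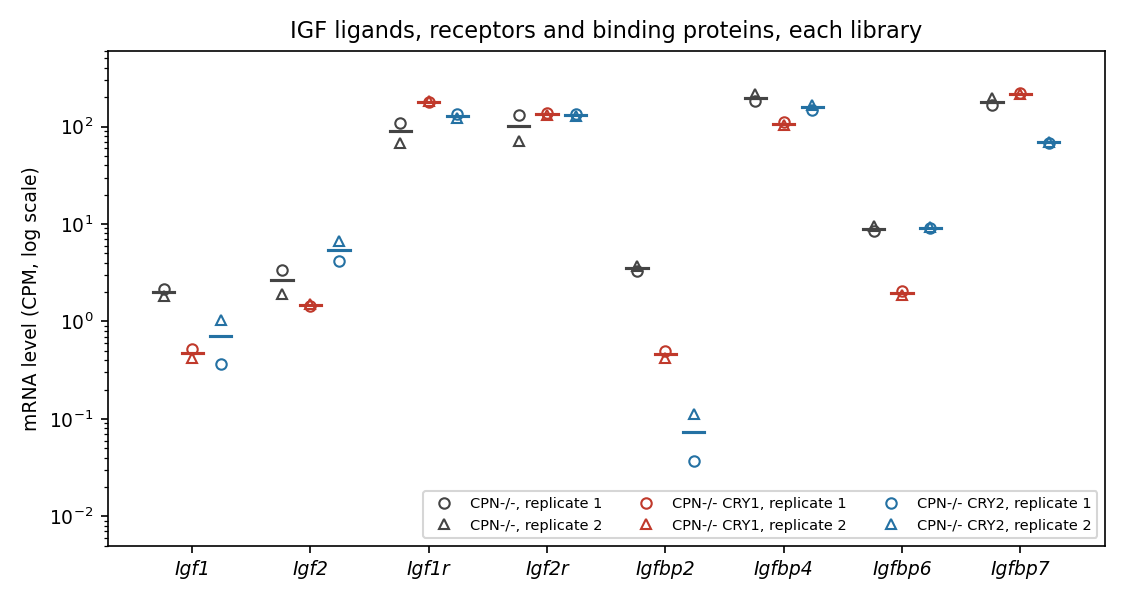
mRNA level in CPM on a log axis for the 8 tested members in each of the 6 libraries. Circles are replicate 1, triangles replicate 2 and short lines the mean of a line; Igfbp2, Igf1 and Igfbp6 are below the parental CPN-/- line in both CPN-/- CRY1 libraries, and Igfbp7 is lowest in CPN-/- CRY2.

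In CPN-/- CRY1 cells, 5 of the 8 tested members passed the test against CPN-/- cells. Igf1r rose, and Igf1, Igfbp2, Igfbp4 and Igfbp6 fell. The p-values came from edgeR's quasi-likelihood test, adjusted by Benjamini and Hochberg over 14069 genes, of which it called 24.3% in this comparison, 11.2% higher and 13.1% lower. The median log2 fold change of the 8 members was -0.87, beside -0.01 over all tested genes. Since the members were chosen with earlier results of these data known, such values describe the list and do not test it. In CPN-/- CRY2 cells, 2 of 8 passed, Igfbp2 and Igfbp7, and both fell, where the test called 6.66% of all genes, 2.58% as higher and 4.08% as lower. Between the CRY lines, 5 of 8 differed, with Igfbp2 and Igfbp7 higher and Igf2, Igfbp4 and Igfbp6 lower in CPN-/- CRY1, where 16.3% of all genes were called, 7.72% as higher and 8.57% as lower. The median of the 8 members was -0.14 for CPN-/- CRY2 against CPN-/- and -0.26 for CPN-/- CRY1 against CPN-/- CRY2. The comparisons of both CRY lines with CPN-/- used the same CPN-/- libraries. These calls moved with single libraries. Fewer members passed in CPN-/- CRY1 without either of its own libraries, and more passed in CPN-/- CRY2 without either CPN-/- library. Between the CRY lines, fewer passed without any 1 of the CRY libraries. In each of these cases the share called over all genes moved the same way. With the trend on transcript length taken out of every library, the split over all genes, 1579 higher and 1844 lower in CPN-/- CRY1, became 3179 and 2473, and 363 higher and 574 lower in CPN-/- CRY2 became 1508 and 985.

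**Figure D2:**
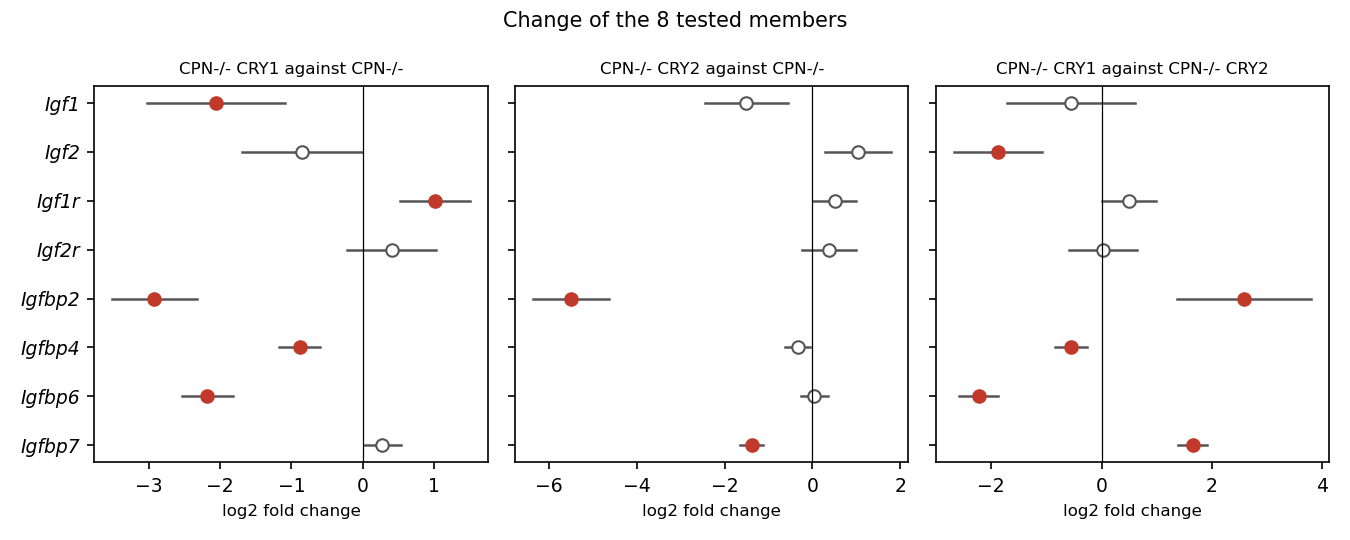
log2 fold change of the 8 tested members in the 3 comparisons, with 95% intervals; filled points passed the test at an adjusted p under 0.05. Igfbp2 lies left of 0 in both CRY lines, Igfbp6 in CPN-/- CRY1 alone among the comparisons with CPN-/-, and Igfbp7 in CPN-/- CRY2.

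Igf1 encodes the ligand with the highest affinity for the IGF1 receptor, and lies on chromosome 10 at 87858265 to 87937047 (GRCm38, plus strand). CPN-/- cells had 2.14 and 1.84 CPM of it, with 0.526 and 0.422 in the CRY1 line, and 0.367 and 1.04 in the CRY2 line. Both CRY lines lay below CPN-/- without overlap, and the CPN-/- CRY2 libraries, at 10 and 28 counts, lay on either side of the CPN-/- CRY1 libraries. The log2 fold change was -2.06 (SE 0.41, edgeR adjusted p = 0.0141) in CPN-/- CRY1, and the call was lost without either CPN-/- CRY1 library (adjusted p = 0.0973 and 0.118). The change in CPN-/- CRY2, -1.5 (SE 0.40, 95% interval -2.45 to -0.56), did not pass (edgeR adjusted p = 0.0805). It passed there with DESeq2 (0.0447), with no filter other than 1 count (0.0276), with the length trend removed (0.0175) and without either CPN-/- library (0.00309 and 0.00118). The CRY lines differed by -0.55 (95% interval -1.71 to 0.60), which did not pass.

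Igf2 encodes the fetal growth ligand, expressed from the paternal chromosome, and lies on chromosome 7 at 142650768 to 142666816 on the minus strand. CPN-/- cells had 3.36 and 1.92 CPM, CPN-/- CRY1 cells 1.44 and 1.52, and CPN-/- CRY2 cells 4.19 and 6.74. The lines did not overlap, with CPN-/- CRY2 highest and CPN-/- CRY1 lowest, and the libraries of CPN-/- and of CPN-/- CRY2 were spread widely. Igf2 was 3.69-fold lower with CRY1 than with CRY2 (log2 -1.88, SE 0.34, edgeR adjusted p = 0.0123). Against CPN-/-, neither CRY line passed: the log2 fold change was -0.85 (95% interval -1.69 to -0.0091) for CRY1 and 1.03 (0.28 to 1.78) for CRY2. These values turned on the setting: that for CRY2 passed with DESeq2 (adjusted p = 0.0409), with the length trend removed (0.0421) and at 1.51 and 0.71 without CPN-/- replicate 1 and 2. That for CRY1 passed with the length trend removed (0.0462) and at -1.18 without CPN-/- replicate 2, and was -0.37 without replicate 1. The difference between CRY lines lost its call without CPN-/- CRY1 replicate 1 (adjusted p = 0.112) or 2 (0.102), or without CPN-/- CRY2 replicate 2 (0.0909). Of the 5723 exonic bases of Igf2, 3596 are shared with the read-through gene Gm49394 on the same strand. No counted gene was matched to that symbol, and whether shared reads changed the counts of Igf2 was not tested.

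The receptor Igf1r, which carries the IGF signal, lies on chromosome 7 at 67952257 to 68233668 on the plus strand. CPN-/- cells had 109.9 and 68.6 CPM, against 178 and 181 in the CRY1 line, and 134 and 121 in the CRY2 line. CPN-/- CRY1 libraries were highest and CPN-/- libraries lowest, with no overlap. Igf1r rose 2.01-fold in CPN-/- CRY1 (log2 1.01, SE 0.21, edgeR adjusted p = 0.0157). For CPN-/- CRY2 against CPN-/- it was 0.51 (95% interval 0.026 to 1.00) and the CRY lines differed by 0.49 (0.0074 to 0.98), neither past the test. The former passed without CPN-/- replicate 1 or 2, at 0.90 and 0.22, and the latter without either CPN-/- library, with only the 4 CRY libraries and with the length trend removed, at 0.49 to 0.54. Leaving out either CPN-/- CRY1 library removed the call of the rise (adjusted p = 0.0995 and 0.108).

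Igf2r, the clearance receptor on chromosome 17 at 12682406 to 12769706 (minus strand), had 133 and 70.4 CPM in CPN-/-, 137 and 132 in the CRY1 line, and 136 and 129 in the CRY2 line. The lines overlapped, and CPN-/- replicate 2 alone lay apart from the other 5 libraries. Against CPN-/-, Igf2r was 0.40 (95% interval -0.22 to 1.02) on the log2 scale with CRY1 and 0.38 (-0.24 to 1.00) with CRY2, and the CRY lines differed by 0.02 (-0.59 to 0.64); none of the 3 passed. Without CPN-/- replicate 1, both passed, at 0.94 and 0.91, whereas without CPN-/- replicate 2 they were 0.024 and 0.0024.

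The transcripts of Igf1r (11409 bases) and Igf2r (8887 bases) are among the longest tested, with 1.31% and 3.74% of tested genes longer. Between the CPN-/- libraries, Igf1r was 0.68 and Igf2r 0.92 log2 units higher in replicate 1, and Igf2 was 0.79 higher. The 4 tested binding proteins were 0.16 to 0.24 lower in replicate 1. With that length trend taken out, Igf1r in CPN-/- CRY1 was 0.69 and still called (adjusted p = 7.3e-05), Igf1r in CPN-/- CRY2 was 0.15 (adjusted p = 0.13), and Igf2r was 0.18 and 0.13, neither called.

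**Figure D3:**
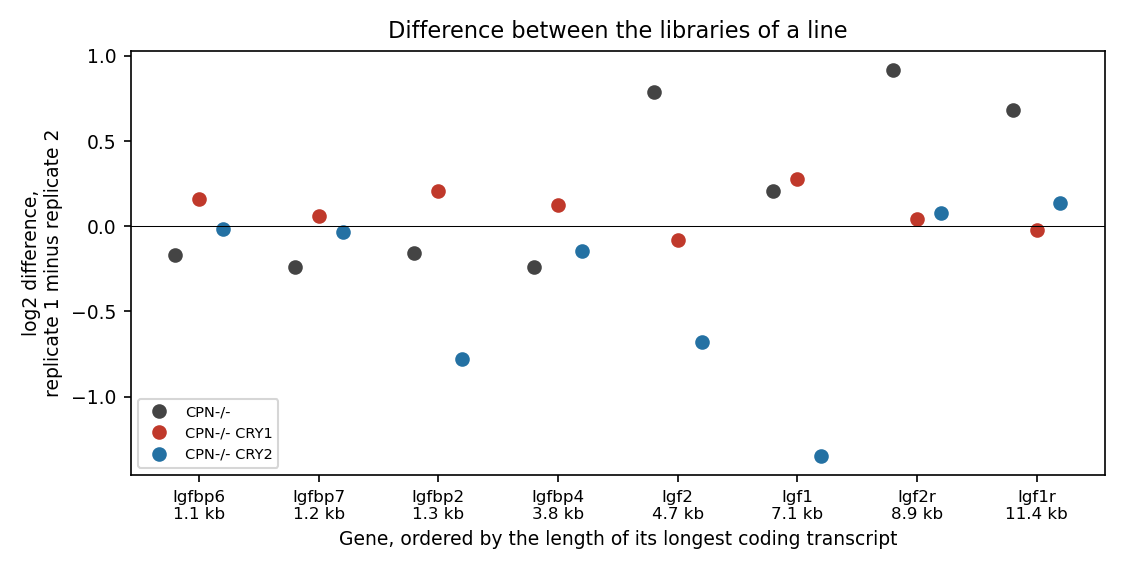
log2 difference between replicate 1 and replicate 2 of each line for the 8 tested members, ordered by transcript length. In CPN-/-, the 4 members with the longest transcripts are higher in replicate 1 (0.21 to 0.92) and the other 4 lower; the widest difference is that of Igf1 in CPN-/- CRY2, at -1.35, from 10 and 28 counts.

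Igfbp2 showed the largest change of the family in both CRY lines. Its product binds both IGFs, IGF2 with preference, and also contacts integrins. The gene lies on chromosome 1 at 72824480 to 72852474 on the plus strand, and its promoter window carries the E-box letters printed above. The libraries held 106 and 97 counts in CPN-/-, 18 and 13 in the CRY1 line, and 1 and 3 in the CRY2 line, or 3.33 and 3.72, 0.498 and 0.422, and 0.0367 and 0.111 CPM. The 3 lines did not overlap, in the order CPN-/-, CPN-/- CRY1, CPN-/- CRY2. Igfbp2 fell 7.56-fold in CPN-/- CRY1 (log2 -2.92, SE 0.25, edgeR adjusted p = 0.000662). With CRY2 the fitted log2 fold change was -5.50 (SE 0.37, edgeR adjusted p = 0.000632), and the ratio of CPN-/- to CPN-/- CRY2 by counts was 47.5, with a 95% counting interval of 18.3 to 176, on 203 against 4 counts. Both calls against CPN-/- held under every alternative that kept the gene. CPN-/- CRY1 exceeded CPN-/- CRY2 by a count ratio of 6.27 (2.22 to 24.5; edgeR adjusted p = 0.018). That call was lost without any 1 of the 4 CRY libraries, with adjusted p between 0.0698 and 0.133, and the log2 difference ran from 2.02 without CPN-/- CRY2 replicate 1 to 3.51 without replicate 2.

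None of the 54 tested genes within 5 Mb of Igfbp2 had a log2 fold change as low as its own in either CRY line, and their median was 0.10 with CRY1 and -0.05 with CRY2. Its nearest family member, Igfbp5, lies 5590 bases away and had no counts. Over the 6 libraries, the genes whose centred log2 levels lay nearest to those of Igfbp2 were Ptprf, H2-Q7 and Slpi, at distances of 0.883, 0.946 and 1.15 log2 units among 12599 genes with a mean of at least 1 CPM. They lie on chromosomes 4, 17 and 2.

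Igfbp4 encodes a binding protein that restrains IGF action until PAPP-A cleaves it, and lies on chromosome 11 at 99040005 to 99052655 on the plus strand. It had 182 and 215 CPM in CPN-/-, 112 and 103 in the CRY1 line, and 149 and 166 in the CRY2 line. The lines did not overlap, with CPN-/- CRY1 lowest. It fell 1.84-fold in CPN-/- CRY1 (log2 -0.88, SE 0.12, edgeR adjusted p = 0.00412). The value for CPN-/- CRY2, -0.33 (95% interval -0.62 to -0.048), did not pass, but did at -0.45 and -0.20 without CPN-/- replicate 1 and 2. The CRY lines differed by -0.55 (SE 0.12, edgeR adjusted p = 0.0245). Its fall in CPN-/- CRY1 was not called without replicate 2 of that line (adjusted p = 0.0674), and the difference between CRY lines was lost without any 1 of the 4 CRY libraries (0.119 to 0.228). It was also lost, at 0.0543, when each library's median shift of each chromosome was removed.

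Igfbp6 encodes the binding protein with a strong preference for IGF2. It lies on chromosome 15 at 102144186 to 102149512 on the plus strand. It had 8.39 and 9.44 CPM in CPN-/-, 2.08 and 1.85 in the CRY1 line, and 9.15 and 9.27 in the CRY2 line. The CPN-/- CRY1 libraries lay far below the others, and the CPN-/- CRY2 libraries lay within the range of CPN-/-. Igfbp6 fell 4.52-fold in CPN-/- CRY1 (log2 -2.18, SE 0.15, edgeR adjusted p = 0.000354). CPN-/- CRY2 was 0.05 from CPN-/- (95% interval -0.27 to 0.36), and the CRY lines differed by -2.22 (SE 0.15, edgeR adjusted p = 0.000374). Both calls held under every alternative.

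Chromosome 15 as a whole was lower in the CPN-/- CRY1 line. Of its 530 tested genes, 226 were called lower and 17 higher against CPN-/-, and their median was -0.36 on the log2 scale, beside 0.05 with CRY2. Igfbp6 lay 1.82 log2 units below the median of its chromosome. Of the 104 tested genes within 5 Mb, 2 had a lower log2 fold change than Igfbp6, and the median of the 104 was -0.26. With each library's chromosome shifts removed, Igfbp6 was -1.80 in CPN-/- CRY1 and still called (edgeR adjusted p = 0.000589). The other members lay on chromosomes whose median in CPN-/- CRY1 was between -0.11 and 0.11. Near Igfbp4 the shift was wider than over its chromosome. The 192 tested genes within 5 Mb had a median of -0.25 in CPN-/- CRY1 against CPN-/-, with 20 of them lower than Igfbp4. Against CPN-/- CRY2 that median was -0.29, with 44 lower. The part of this shift in the change of Igfbp4 was not tested. The genes with levels most like those of Igfbp6 over the 6 libraries were Wnt5b, Id4 and Crabp1, at distances of 0.295, 0.412 and 0.424 log2 units, on chromosomes 6, 13 and 9.

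**Figure D4:**
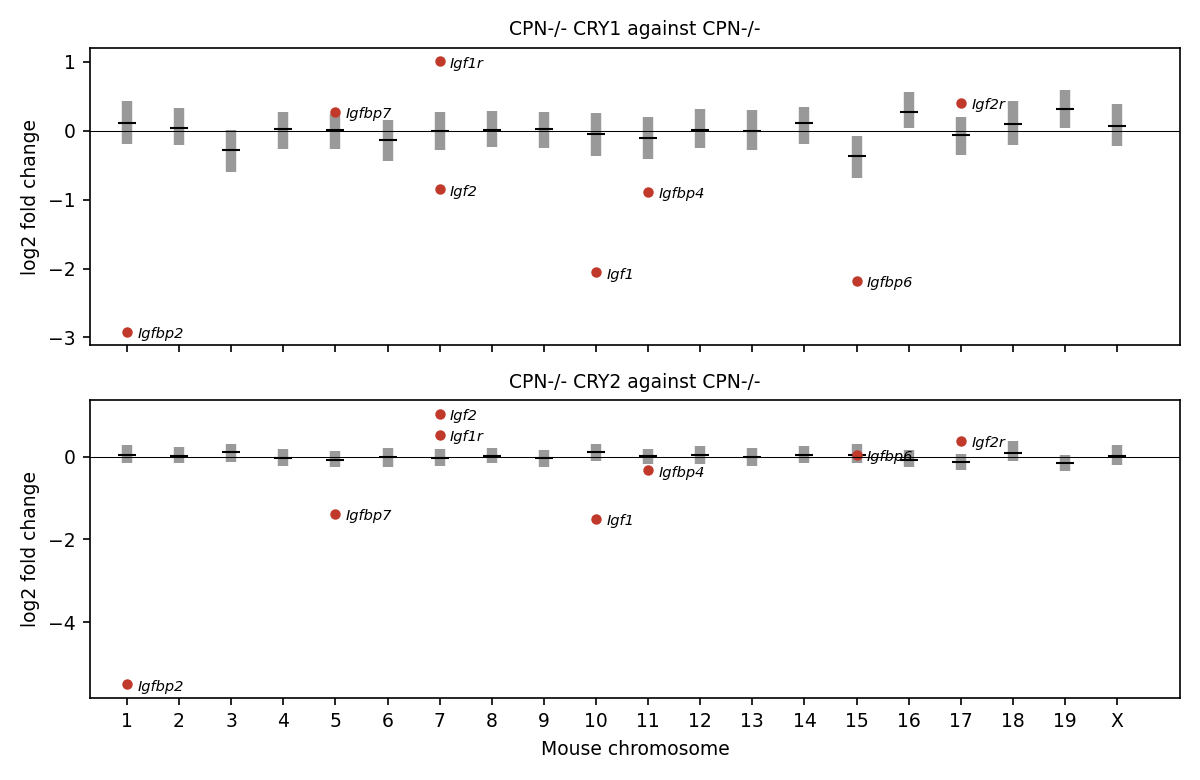
log2 fold change against CPN-/- of the 8 tested members (points) over the median (black dash) and the range from the lower to the upper quartile (grey bar) of tested genes on each chromosome, for CPN-/- CRY1 above and CPN-/- CRY2 below. In CPN-/- CRY1, chromosome 15 has a median of -0.36 and Igfbp6 lies at -2.18; in CPN-/- CRY2, Igfbp6 lies at the median of its chromosome.

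Igfbp7, the low-affinity member that is a secreted matrix protein of fibroblasts and vessels, lies on chromosome 5 at 77349240 to 77408045 on the minus strand. It had 166 and 196 CPM in CPN-/-, 223 and 214 in the CRY1 line, and 68.6 and 70.3 in the CRY2 line. The CPN-/- CRY2 libraries lay far below the rest, and those of CPN-/- CRY1 were the highest. Igfbp7 fell 2.6-fold in CPN-/- CRY2 (log2 -1.38, SE 0.11, edgeR adjusted p = 0.00114). In CPN-/- CRY1 the log2 fold change was 0.27 (95% interval 0.013 to 0.53), which did not pass, although it did with the length trend removed (0.56, adjusted p = 0.000183) or without either CPN-/- library. CPN-/- CRY1 exceeded CPN-/- CRY2 3.14-fold (log2 1.65, SE 0.11, edgeR adjusted p = 0.000391). The call in CPN-/- CRY2 and that between the CRY lines held under every alternative. Igfbp7 shares 85 of 1209 exonic bases with Polr2b on the opposite strand, and Polr2b had 3789 to 5074 counts.

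Levels of some genes on the marker lists of other cell types moved with the lines as well. The smooth muscle markers Acta2, Tagln, Myh11 and Cnn1 together had 1411 to 1788 CPM in CPN-/-, 5120 to 5309 in CPN-/- CRY1 and 2143 to 2383 in CPN-/- CRY2, mostly from Acta2. The list did not rise as a whole. In CPN-/- CRY1, Acta2 and Tagln were called higher and Myh11 was not called. Cnn1 went the other way, with 8 and 7 counts in CPN-/- and 2 and 3 in CPN-/- CRY1. Of 4 adipocyte markers, 1 (Fabp4) had over 10 counts in every library, and the list summed to 8.77 to 12.1, 0.747 to 0.779 and 1.89 to 2.39 CPM. Their part in the changes of the IGF genes was not tested.

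Beyond the family, 56 genes that release, carry or transmit the IGF signal were examined, of which 50 passed the filter. In CPN-/- CRY1 cells, 17 of the 50 passed the test, 10 higher and 7 lower, beside 24.3% of all genes. With CRY2, 5 passed, 3 higher and 2 lower, beside 6.66%, and between CRY lines 7 passed, 3 higher and 4 lower in CPN-/- CRY1, beside 16.3%. The median log2 fold change of the 50 was 0.11, 0.17 and -0.03. These counts moved with single libraries. Against CPN-/-, fewer genes passed in each CRY line without either of its own libraries, and more without either CPN-/- library. In CPN-/- CRY1, fewer also passed without either CPN-/- CRY2 library. Between CRY lines, more passed without either CPN-/- library and fewer without any 1 of the CRY libraries. The share called over all genes moved the same way in each of these cases. With only the 4 libraries of a comparison, the calls named next for Stc1, Grb2, Foxo1, Foxo6, Tsc1, Gsk3b, Igf2bp1 and Igf2bp3 in CPN-/- CRY1 and for Irs1 in CPN-/- CRY2 were lost (edgeR adjusted p between 0.0696 and 0.088). Chromosomes other than 15 were shifted as well. The median in CPN-/- CRY1 against CPN-/- was -0.28 on chromosome 3, 0.27 on chromosome 16 and 0.31 on chromosome 19. Against CPN-/- CRY2 it was -0.40, 0.35 and 0.46. The other carriers Igfbp1, Igfals and Igfbpl1 had 8 counts or fewer in every library and were not tested.

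Proteases that cut IGFBPs and their inhibitors had 4 of 7 members called in CPN-/- CRY1, 2 in each direction, beside 24.3% of all genes. Pappa, the metalloproteinase that cleaves IGFBP4, had 0.346 and 0.384 CPM in CPN-/-, 2.02 and 1.52 in the CRY1 line, and 0.882 and 0.964 in the CRY2 line, lowest in CPN-/- and highest in the CRY1 line without overlap. It rose by 2.28 log2 units in CPN-/- CRY1 (SE 0.28, edgeR adjusted p = 0.00278). Against CPN-/-, the CRY2 line was at 1.33 (95% interval 0.57 to 2.10), which did not pass, but did without either CPN-/- library. Adamts1, a metalloproteinase with thrombospondin repeats, rose in both CRY lines, by 1.66 (SE 0.13, edgeR adjusted p = 0.000557) and 1.00 (SE 0.13, edgeR adjusted p = 0.0064). In CPN-/- CRY2 the call was lost without either library of that line. The stanniocalcins Stc1 and Stc2, which inhibit PAPP-A, both fell in CPN-/- CRY1. Neither was called in CPN-/- CRY2, where Stc1 also had 4 counts against 28. There Stc1 was at -2.64 (95% interval -4.59 to -0.69) and Stc2 at -0.28 (-0.68 to 0.11). The CRY lines differed by -0.29 (-3.22 to 2.64) for Stc1 and -0.56 (-0.97 to -0.16) for Stc2, neither called. Stc2 had 7.73 and 6.18 CPM in CPN-/- and 3.87 and 3.89 in CPN-/- CRY1 (log2 -0.84, SE 0.17), and its call was lost without either CPN-/- CRY1 library. Stc1 rested on 28 against 4 counts, a ratio of 8.10 with a counting interval of 2.83 to 31.8, and lost its call without any 1 CRY library. Pappa2, which cleaves IGFBP3 and IGFBP5, had 15.9 and 6.64 CPM in CPN-/- and was not called against it, at -0.03 with CRY1 and 0.92 with CRY2. CPN-/- replicates decided these values: without replicate 1 they were 0.75 and 1.69 and without replicate 2 -0.50 and 0.44, all 4 called. The serine protease Htra1 (log2 -0.24 and -0.20) and the lysosomal protease Ctsd (0.10 and 0.12) were abundant, at 494 to 707 CPM, and not called. Between CRY lines, Pappa (0.95) and Adamts1 (0.66) were higher in CPN-/- CRY1, and both calls were lost without any 1 of the CRY libraries and with chromosome shifts removed. Adamts1, on chromosome 16, was then at 0.32 (edgeR adjusted p = 0.156) and Pappa at 0.92 (0.0563).

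Of the receptors and adaptors, 3 of 13 tested genes passed in CPN-/- CRY1 and 2 in CPN-/- CRY2, beside 24.3% and 6.66% of all genes. Grb14, an adaptor that inhibits the insulin receptor kinase, had 23.3 and 26.4 CPM in CPN-/-, 2.52 and 2.08 in the CRY1 line, and 3.49 and 2.85 in the CRY2 line. Both CRY lines lay far below CPN-/-. It fell by 3.43 log2 units (SE 0.17, edgeR adjusted p = 0.000154) in CPN-/- CRY1 and by 2.97 (SE 0.17, edgeR adjusted p = 0.000327) in CPN-/- CRY2, under every alternative. Irs1, the main substrate of the IGF1 receptor, had 55.6 and 39.3 CPM in CPN-/-, 82.7 and 80.8 in the CRY1 line, and 94.1 and 88.2 in the CRY2 line. It rose by 0.78 and 0.94 (SE 0.16 in each, edgeR adjusted p = 0.0164 and 0.0196), and the call was lost without either CPN-/- CRY1 library in CPN-/- CRY1, where it was 0.52 and still called with the length trend removed, and without any 1 of the CRY libraries in CPN-/- CRY2. Grb2, which links receptors to RAS, fell by 0.40 in CPN-/- CRY1 (edgeR adjusted p = 0.0207). It was lower than in CPN-/- CRY2 by 0.33 (0.0485), as was Ghr, the growth hormone receptor, by 0.42 (0.0408). Ghr lies on chromosome 15, and with chromosome shifts removed its difference reversed to 0.025; those of Grb2 were then -0.31 and -0.24, neither called. The Grb2 and Ghr calls were lost without any 1 of the CRY libraries.

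Of 25 genes of the PI3K, AKT and FOXO branch, 4 were higher and 2 lower in CPN-/- CRY1, and 1 was higher in CPN-/- CRY2, beside 24.3% and 6.66% of all genes in either direction. Those that rose in CPN-/- CRY1 included Gsk3b (0.70), a kinase that AKT inhibits, and Tsc1 (0.63), a brake on mTORC1. The genes that fell were the transcription factors Foxo6 (-0.87) and Foxo1 (-0.69), of which AKT excludes FOXO1 from the nucleus. Each of these 4 calls was lost without any 1 of the CRY libraries, and that of Foxo6 also without CPN-/- replicate 1 and with DESeq2 (adjusted p = 0.12). With chromosome shifts removed, Gsk3b, on chromosome 16, was 0.42 (edgeR adjusted p = 0.126) and Foxo1, on chromosome 3, was -0.42 (0.12), so neither kept its call. With the length trend removed, Tsc1 was 0.42 and still called. Without 1 CPN-/- library the sizes moved too, with the calls kept: Foxo1 was -0.42 without replicate 1, and Tsc1 was 0.39 and Gsk3b 0.43 without replicate 2. Pik3r3, a regulatory subunit of PI3K, had 41.9 and 32.1 CPM in CPN-/-, 48.2 and 46.0 in the CRY1 line, and 77.2 and 78.9 in the CRY2 line. It rose by 1.07 in CPN-/- CRY2 (SE 0.14, edgeR adjusted p = 0.00626) and was 0.73 lower with CRY1 than with CRY2 (0.015). Foxo1 likewise had less mRNA with CRY1 than with CRY2 (-0.71, edgeR adjusted p = 0.0384), a difference of -0.34 that was not called with chromosome shifts removed (0.275). These Pik3r3 calls were lost without either CPN-/- CRY2 library, and both differences between CRY lines without any 1 of the CRY libraries.

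Among genes tied to Igf2 RNA and the imprinted loci, 3 rose and 1 fell of 5 tested in CPN-/- CRY1, beside 11.2% of all genes called higher and 13.1% lower. The mRNA-binding proteins Igf2bp1, Igf2bp2 and Igf2bp3, named for binding Igf2 mRNA, rose by 0.55, 0.61 and 0.51 (edgeR adjusted p = 0.0265, 0.011 and 0.0254), and all 3 calls were lost without either CPN-/- CRY1 library, those of Igf2bp1 and Igf2bp3 also without either CPN-/- CRY2 library. The CRY2 line gave 0.15, -0.17 and 0.20, none called. Igf2bp2 was 0.79 higher in CPN-/- CRY1 than in CPN-/- CRY2 (edgeR adjusted p = 0.00596), lost without any 1 of the CRY libraries. With chromosome shifts removed, Igf2bp2, on chromosome 16, was 0.34 against CPN-/- (edgeR adjusted p = 0.0634) and 0.45 between CRY lines (0.0401), and with the length trend removed Igf2bp1 was 0.30 against CPN-/- and still called. H19, the maternally expressed noncoding RNA 72621 bases from Igf2, had 442 and 397 counts in CPN-/-, 3 and 4 in the CRY1 line, and 5 and 8 in the CRY2 line. Both CRY lines were near the floor of 3 counts, and H19 fell in both under every alternative that kept it. The count ratio of CPN-/- to CPN-/- CRY1 was 139 (95% counting interval 67.0 to 346), and the fitted log2 fold change in CPN-/- CRY2 was -5.90 (SE 0.24, edgeR adjusted p = 0.000156). Igf2 itself passed the test in neither of these comparisons. Airn, the antisense noncoding RNA that overlaps Igf2r, had 2.46 to 3.67 CPM and was not called, at -0.04 and 0.36; Igf2os had 0 or 1 counts and was not tested.

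**Figure D5:**
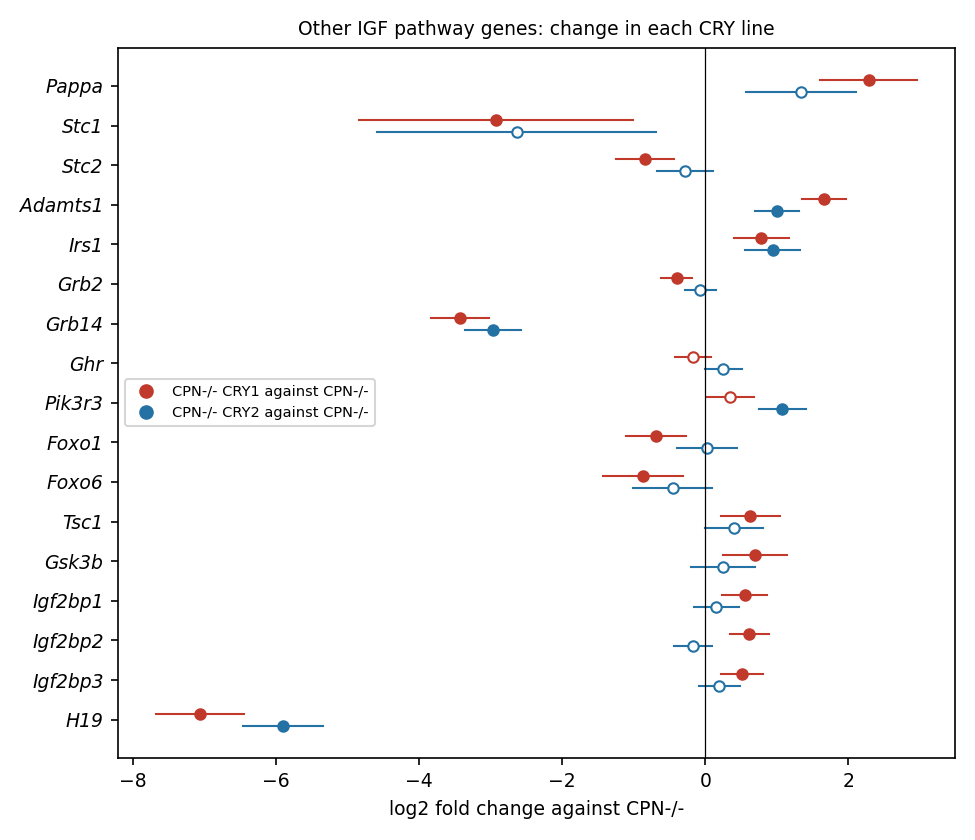
log2 fold change against CPN-/- with 95% intervals for the other IGF pathway genes named in the text that passed in at least 1 comparison, in CPN-/- CRY1 (red) and CPN-/- CRY2 (blue); filled points passed the test. Grb14 and H19 lie far left of 0 in both lines, Adamts1 and Irs1 right of 0 in both, and Pappa right of 0 with its point filled in CPN-/- CRY1 alone.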

How the data were processed

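PolyA RNA of 3 MEF lines (2 libraries each, grouped by the GEO titles) was sequenced as paired-end reads from stranded libraries. The authors mapped reads to mm10 with RNA STAR and counted them with featureCounts; the deposited tables hold whole counts per NCBI Gene identifier, neither filtered nor normalized. The annotation, strand setting and treatment of multiply mapped reads are not given in the sources used here. Symbols and positions came from RefSeq (GRCm38.p6) for 25275 of 27179 identifiers, and lengths for 21572. Near-identical sequence was searched with BLAST+ 2.17.0 (95% identity over 150 bases).

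The counts were tested in R 4.3.3 with edgeR 4.0.16: filterByExpr (defaults, 10 counts at the median library size and 15 over all libraries), TMM factors, the line as the only term, all 6 libraries, robust quasi-likelihood fits, two-sided tests, and p-values adjusted by Benjamini and Hochberg across the tested genes and called under 0.05. Libraries held 25957409 to 36106949 counts. SE is the size of the log2 fold change over the square root of F. Count ratios have exact 95% binomial intervals, which cover counting error only. With 2 libraries a line, no exact permutation over libraries could reach the threshold. Counts of 14069 genes were simulated for CPN-/- CRY1 against CPN-/- without a length trend or chromosome shift, which the real libraries had. Of 200 genes changed by 1.5 log2 units, 98% were recovered, with 15 false calls among the unchanged genes. These values therefore do not cover errors from such trends.

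Alternatives were DESeq2 1.42.0 (Wald test or size factors), other filters, only 4 libraries, a replicate block, a threshold of 0.01, offsets for each library's trend with transcript length (loess, span 0.5) or median shift per chromosome, and each library left out in turn. All 10 members are named. Of the other pathway genes, up to 3 called per list, direction and comparison with a mean of at least 1 CPM are named, and all genes of lists of 8 or fewer; 1 gene that the rule names is counted but not reported here. The 3 nearest genes are given for the 2 members with the widest range of line means. The members and lists were chosen with earlier results of these data known.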

Additional observations from a re-analysis of the deposited data

Results flagged for a closer look

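The direct test between the CRY lines found that 5 members differed between them, by edgeR's quasi-likelihood test over 14069 genes. It called 16.3% of all genes in this comparison. Such a difference can come from the CRY protein or from the chosen colonies. The calls of Igf2, Igfbp2 and Igfbp4 were lost when single CRY libraries were left out, and those of Igfbp6 and Igfbp7 held. Igf2 differed by -1.88 log2 units (CPN-/- CRY1 minus CPN-/- CRY2). Igfbp2 differed by 2.58, Igfbp4 by -0.55, Igfbp6 by -2.22 and Igfbp7 by 1.65. Lines of 2 libraries cannot be tested for a library that stands apart.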

How the results depend on the processing

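Under the alternatives, the members' fold changes against one line or the other kept direction and side of the threshold in 305 cases, passed it newly in 24, lost it in 22 and reversed in 6. The cause of these moves was not tested beyond the construction of each alternative. Members called in CPN-/- CRY1, CPN-/- CRY2 and between CRY lines were 5, 2 and 5, beside 24.3%, 6.66% and 16.3% of all genes. At an adjusted p under 0.01 the first and last were 3 and 2, beside 8.42% and 6.07%. In CPN-/- CRY2 they were 1 with at least 10 counts in every library, which removed Igfbp2, beside 4.5% of all genes. They were 4 with DESeq2's Wald test, beside 9.42%, and 4 with the length trend removed, beside 17.7%. Leaving out 1 library gave 2 to 7, 2 to 7 and 2 to 6. Pathway genes called were 17, 5 and 7. With only the 4 libraries of a comparison the first and last were 7 and 30, beside 12.9% and 49.7% of all genes. Under 0.01 they were 4 and 1, beside 8.42% and 6.07%. With the length trend removed all were 28, 12 and 22, beside 40.2%, 17.7% and 32.2%. Between CRY lines 2 were left with chromosome shifts removed, beside 10.5%. Leaving out 1 library gave 4 to 38, 2 to 38 and 0 to 30; the 0 by edgeR came without any 1 of the CRY libraries, when 5 to 8 of 50 had an unadjusted p under 0.05. Over all genes, the called share without 1 library was 4.64% to 63.0%, 1.37% to 56.4% and 3.32% to 48.4%. A fit that leaves 1 library in a line takes that library to vary like the other lines.

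Apart from Ghr between CRY lines, which was called at -0.42, the reversed fold changes were of values not called with all libraries. With chromosome shifts removed, Igfbp6 in CPN-/- CRY2 was -0.023, Foxo1 there -0.079, Ghr 0.20 and Airn 0.016 in CPN-/- CRY1, and between CRY lines Igf2r was -0.045 and Ghr 0.025. With the length trend removed, CPN-/- CRY2 gave Grb2 0.025, Foxo1 -0.25, Gsk3b -0.0022 and Igf2bp1 -0.12. Leaving out 1 library gave, in CPN-/- CRY1, Pappa2 -0.50 to 0.75 and Airn -0.20 to 0.18. In CPN-/- CRY2 it gave Igfbp6 -0.036 to 0.14, Foxo1 -0.20 to 0.30 and Gsk3b -0.012 to 0.58. Between CRY lines it gave Igf1 -1.11 to 0.37, Igf2r -0.020 to 0.064, Stc1 -4.16 to 0.64 and Ctsd -0.10 to 0.054.

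Replicate numbers did not pair the libraries (correlations of deviations -0.079, 0.14 and -0.03). With the replicate block, members called were 5, 2 and 5 and pathway genes 17, 6 and 5, beside 24.6%, 6.94% and 15.6% of all genes. Pappa2 in CPN-/- CRY1 was then 0.027. Genes under the floor of 3 counts, such as Igfbp5 and Igfbp3, cannot be compared at this depth.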
